A study of Mus musculus with 23 samples.

Results

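The genes described here are the interferon-inducible genes, the interferon regulatory factors (IRFs) and the STATs of the mouse hippocampus. They were chosen by gene symbol: symbols that begin with Ifi, Ifit, Ifitm or Oas, with Irf, Stat or Gbp and a digit, and 12 single genes (Mx1, Mx2, Isg15, Usp18, Bst2, Igtp, Irgm1, Iigp1, Ly6e, Psmb9, Eif2ak2 and Adar). The rule gave 46 genes of the 8252 that had a probe set with 1 symbol on the array, and these 46 had 55 such probe sets. A gene with several stood for its probe set of highest mean signal. By symbol, 7 members are IRFs, 5 are STATs, and 1, Irf2bp1, encodes a protein that binds an IRF and came in by its letters. The other 33 are called induced effectors here. They were grouped by symbol alone, some as relatives by sequence such as Ifitm10, and their induction by interferon was not tested. Bst2 had no probe set with that single symbol and was not analysed here.

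Male C57BL/6JNIA mice of 2 ages gave 1 whole hippocampus RNA sample and 1 array each, 14 at 15 months and 9 at 2 months, 23 in all. All of them, at both ages, underwent Morris water maze training, a spatial memory task, and were killed by cervical dislocation. The labels name no interferon treatment or infection, and no untrained mice were among them. The samples were called biological replicates. No batch or scan date was given, and the running numbers in the titles do not overlap between the ages, so handling order, if it followed them, cannot be told apart from age.

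As background, cells that sense foreign or misplaced nucleic acid make interferons through IRF3 and IRF7. Interferon alpha and beta bind a receptor that carries the kinases JAK1 and TYK2, which phosphorylate STAT proteins. These join IRF9 to form the complex ISGF3, which binds the interferon-stimulated response element in the promoters of induced genes, while interferon gamma acts through the gamma-activated site. In the brain, microglia, astrocytes, endothelium and neurons can all respond, and the induced proteins block viral entry, bind viral RNA or raise antigen presentation.

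The promoters showed how far the induced members share the response element. The letters GAAANNGAAA, or TTTCNNTTTC on the other strand, were searched on both strands in RefSeq promoters of the build GRCm38.p6, each running from 250 bases before to 50 bases after a transcription start, with overlapping matches counted. For 38 members there were 50 promoters, and 15 of these (30% of them, 1 for each of 15 members) held the letters, against 3.44% of all 32851 promoters. They stood in 14 of 25 induced members and in Stat4, 1 of 5 STATs, and in 0 of 7 IRFs. Adar, Ifi35, Ifit2 and Ifitm10 were among the induced members without them. The letters of the gamma-activated site, TTCNNNGAA, which read alike on both strands and may overlap the other motif, stood in 12 of the 50 promoters (24%), against 8.30% of all promoters. Those of Gbp7, Ifitm3, Igtp and Eif2ak2 had both. Ifi204, Ifi27, Ifi27l2a, Iigp1, Ly6e, Mx1, Mx2 and Usp18 had no entry. A match is a description of the letters and not a measured binding site.

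**Figure D1:**
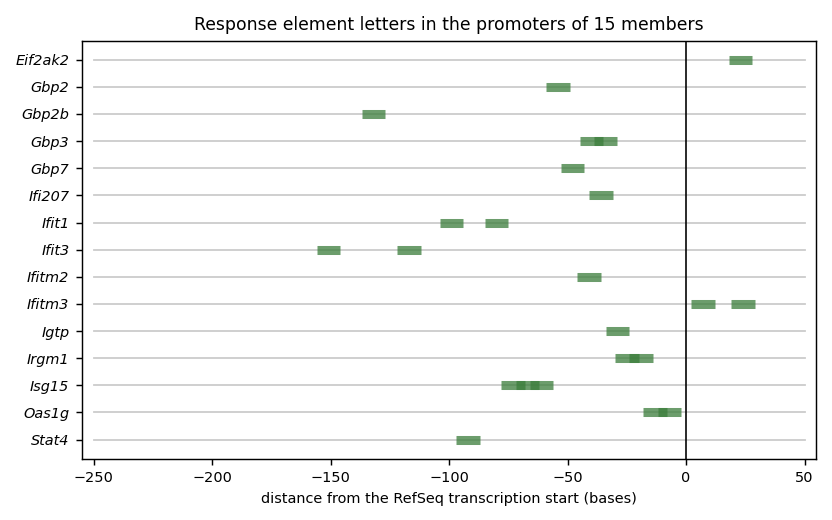
Positions of the response element letters (green) in the 15 members' promoters that held them, in bases from the RefSeq transcription start (0, black line), from 250 before to 50 after it. Isg15 had 3 overlapping matches between 78 and 57 bases before the start, and the 2 matches of Ifitm3 lay after the start.

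Promoter stretches of 4 induced members are printed below, 5′ to 3′ on the gene's strand, with the response element letters in capitals. Isg15, Ifitm3 and Gbp2 are shown since the pairs among them are described further on, with correlations between mice of 0.61 to 0.72 of which only that of Gbp2 and Ifitm3 passed its test, and that not without 15-month replicate 13. Gbp7 is shown since it carries the letters and had r = 0.27 with Isg15. The Isg15 stretch is chr4:156200819-156201018 on the minus strand, and its 3 matches, each overlapping the next, fuse into 1 run. Ifitm3 is chr7:141010715-141010914 on the minus strand, with 170 bases before the start and 30 after it. Gbp2 is chr3:142620463-142620662 and Gbp7 is chr3:142530136-142530335, both on the plus strand. Apart from Ifitm3, each is the 200 bases just before the start.
Isg15: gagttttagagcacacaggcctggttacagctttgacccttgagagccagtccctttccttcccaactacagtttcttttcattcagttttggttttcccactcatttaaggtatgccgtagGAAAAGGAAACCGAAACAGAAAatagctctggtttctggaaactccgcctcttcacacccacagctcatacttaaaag
Ifitm3: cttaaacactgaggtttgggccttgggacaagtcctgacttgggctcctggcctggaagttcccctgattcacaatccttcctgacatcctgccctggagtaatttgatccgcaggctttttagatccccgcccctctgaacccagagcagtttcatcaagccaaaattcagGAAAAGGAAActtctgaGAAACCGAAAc
Gbp2: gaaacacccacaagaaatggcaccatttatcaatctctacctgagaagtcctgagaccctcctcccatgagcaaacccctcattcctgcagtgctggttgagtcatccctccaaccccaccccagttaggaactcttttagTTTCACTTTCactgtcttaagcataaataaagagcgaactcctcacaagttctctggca
Gbp7: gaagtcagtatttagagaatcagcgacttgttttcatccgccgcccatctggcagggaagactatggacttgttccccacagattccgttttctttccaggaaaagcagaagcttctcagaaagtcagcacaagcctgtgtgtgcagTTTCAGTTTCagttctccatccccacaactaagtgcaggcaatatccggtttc
Promoters with 2 or more matches, at any distance from each other, were rare, at 0.225% of all promoters. Beside Isg15 and Ifitm3, the members Gbp3, Ifit1, Ifit3, Irgm1 and Oas1g had 2.

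No member differed between the ages at an adjusted p under 0.05. Of the 46 members 18 were bright enough to be tested, which took a mean log2 signal in the upper part of the array, past percentile 40 of the non-control probe sets (91.7 on the linear scale). They comprised 9 induced effectors, 6 IRFs, 2 STATs and Irf2bp1. The limma test across all 7453 bright probe sets, with Benjamini-Hochberg adjustment, called 0 of these 18 and 28 of all probe sets, or 0.376%, of which 25 were higher at 15 months (0.335%) and 3 lower (0.0403%). At an unadjusted p under 0.05 there were 0 members, against 924 probe sets, or 12.4%. The exact permutation test over all 817190 regroupings of the mice also called 0 members, against 0.349% of all probe sets, and gave 0 at an unadjusted p under 0.05.

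Changes are given as 15-month minus 2-month on the log2(signal + 16) scale, with SE, and mean signals with the SD over 14 and 9 mice. Of the 18 members 9 were above 0 and 9 below, from -0.37 for Isg15 to 0.33 for Ifitm3, with a median of -0.01. Over all tested probe sets the median was -0.02 and 45.0% were above 0. The bounds of the 95% intervals lay 0.12 to 0.51 from the estimate, so the size of change that the data leave possible differs by member. For 14 of the 18 the interval lay within a 1.5-fold change in both directions, and for 7 within 1.25-fold. The signals of the ages overlapped for every one of the 46 members, while they did not for 4 of the tested probe sets, or 0.0537%. In whole tissue, fewer cells of a type and less RNA per cell cannot be told apart.

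**Figure D2:**
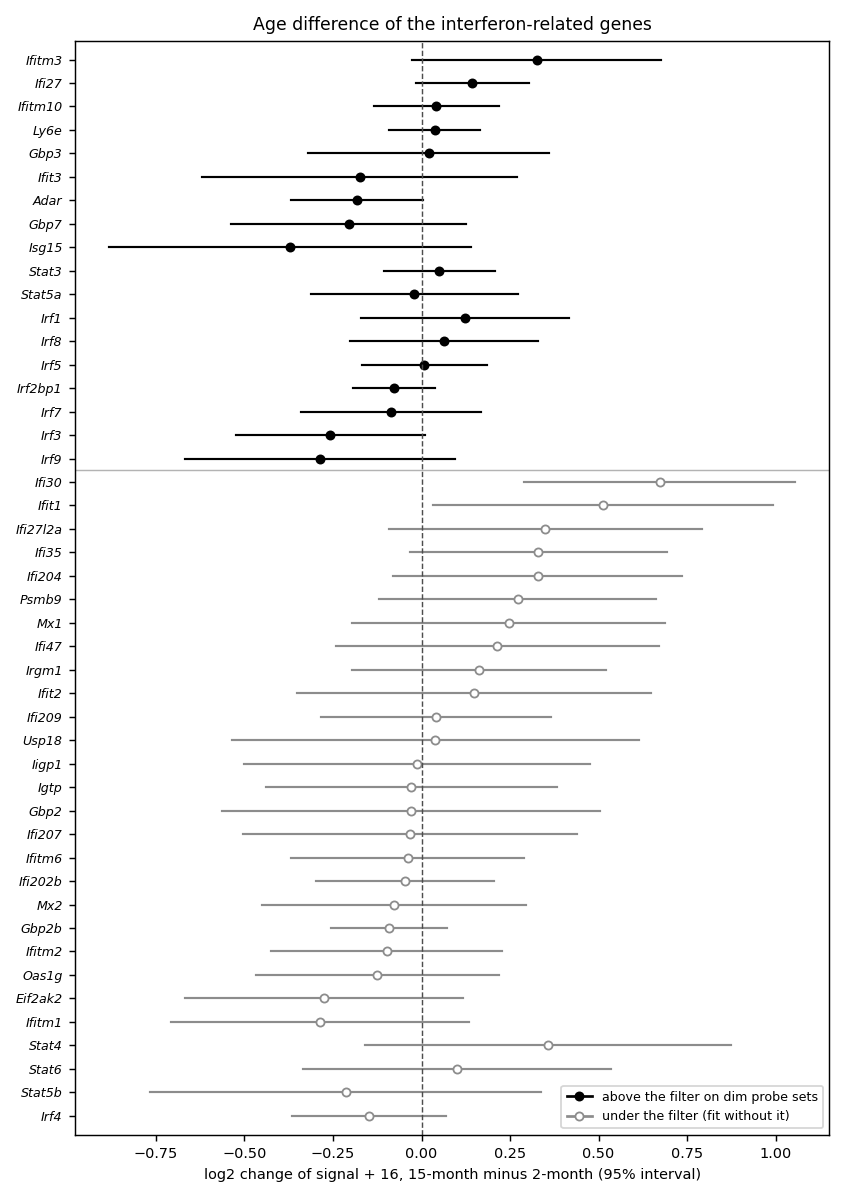
Log2 change of signal + 16, 15-month minus 2-month, for all 46 members, with 95% intervals from limma (filled, the 18 tested members; open, the 28 under the filter, from the fit without it). The tested members run from -0.37 to 0.33 and all 18 of their intervals include 0, while among the dim members those of Ifi30 and Ifit1 do not.

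Among the induced effectors, Isg15, an interferon-induced ubiquitin-like protein that a ligase cascade attaches to other proteins, had the lowest fitted change. Its signals ran from 25.1 to 241.6 with a median of 127.5 at 15 months and from 93.4 to 205.7 with a median of 164.1 at 2 months. In 6 of the 14 older mice the signal lay below the lowest 2-month mouse and in 1 above the highest, so the older range enclosed the younger one. The change was -0.37 ± 0.25 (limma, adjusted p = 0.549; n = 14 and 9).

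Ifitm3, a membrane protein that blocks entry of viruses from endosomes, had the highest change of the tested members. Its signal was 323.1 to 1082.8 at 15 months (median 668.6) and 402.0 to 766.7 at 2 months (median 541.7). The older mice reached higher and lower than the younger ones, and 9 of 14 were above the 2-month mean. The change of 0.33 ± 0.17 did not pass (limma, adjusted p = 0.440).

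Adar, the enzyme that edits adenosine to inosine in double-stranded RNA, had the lowest unadjusted p of the members, 0.0538 by limma, at an adjusted p of 0.412. Its signal was 261.3 to 406.9 (median 374.0) at 15 months and 330.1 to 444.7 (median 391.4) at 2 months. Of the older mice 3 of 14 were above the 2-month mean, and the older range was shifted down with a wide overlap. The change was -0.18 ± 0.09, while a second, dimmer Adar probe set gave 0.11 ± 0.14 (limma, adjusted p = 0.790), so the probe sets of this gene differed in sign.

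Ifi27, a small interferon-induced membrane protein, measured 1468 ± 212 at 15 months and 1324 ± 163 at 2 months (SD), with 11 of 14 older mice above the 2-month mean. Its change was 0.14 ± 0.08 (limma, adjusted p = 0.458). Ly6e, a surface protein anchored by lipid, measured 10402 ± 1108 and 10103 ± 796, a change of 0.04 ± 0.06 with a 95% interval of -0.09 to 0.17. A dimmer Ly6e probe set was under the filter and gave -0.07 ± 0.23 by limma without it, the other sign. Ifitm10, a relative of Ifitm3 by sequence, measured 1205 ± 183 and 1169 ± 174, a change of 0.04 ± 0.09. For these 3 genes the ages differed by less than the SD between mice.

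The other tested effectors belong to families that bind viral RNA or attack vacuoles that hold microbes. Ifit3, a protein of the RNA-binding IFIT complex, measured 96.5 ± 40.2 at 15 months and 104 ± 27.2 at 2 months, a change of -0.17 ± 0.22, which went to -0.05 when 15-month replicate 13 was left out and to -0.11 when 15-month replicate 4 was. The guanylate-binding proteins Gbp3 and Gbp7, GTPases induced by interferon gamma, changed by 0.02 ± 0.17 and -0.21 ± 0.16. Their signals were 104 ± 32.4 against 102 ± 32.1 for Gbp3 and 127 ± 43.6 against 146 ± 35.6 for Gbp7. The adjusted p of these 3 genes was 0.632 to 0.971 by limma.

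**Figure D3:**
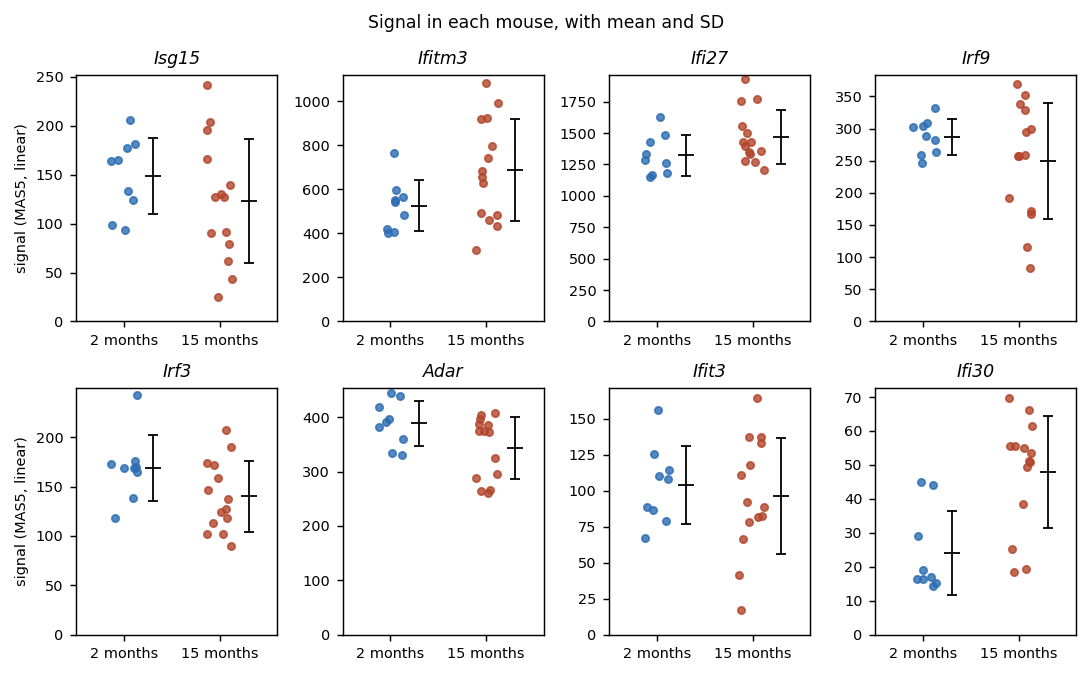
Linear MAS5 signal of 8 members in each mouse, 2-month mice in blue (n = 9) and 15-month mice in red (n = 14), with the mean and SD beside the points. The ages overlap in every panel, and the older mice spread wider than the younger ones for Isg15, Ifitm3, Irf9 and Ifit3. The lowest points of Irf9 and Ifit3 are those of 15-month replicate 13.

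Of the IRFs, Irf9, a DNA-binding partner of STAT proteins, stood out by its spread. At 2 months all 9 mice lay between 246.2 and 331.5, with a median of 287.8. At 15 months the signals ran from 82.9 to 369.6 with a median of 258.0, and replicates 13, 6, 1 and 14 were at 82.9, 115.5, 167.0 and 171.0. The older mice fell on both sides of the younger ones, with 5 below the lowest 2-month mouse and 3 above the highest. The change in mean was -0.29 ± 0.19 (limma, adjusted p = 0.538), and -0.19 without replicate 13.

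The SD of log2(signal + 16) of Irf9 was 0.59 at 15 months and 0.13 at 2 months, a ratio of 4.48. Of all tested probe sets 0.0939% had a ratio as high. The array of 15-month replicate 13, which stood apart from the others, held the lowest Irf9 value, and without it the SD at 15 months was 0.47. Isg15 had SDs of 0.75 and 0.36, a ratio of 2.09 that 5.02% of the probe sets reached, and Ifit3 had 0.64 and 0.32. Replicate 13 also held the lowest Ifit3 value, and without it the SD of Ifit3 at 15 months was 0.45. Irf2bp1 showed the opposite, with SDs of 0.06 at 15 months and 0.17 at 2 months, a ratio of 0.34 at or below which lay 0.228% of the probe sets. Of the 18 members 13 had a ratio above 1, with a median of 1.25, against a median of 1.08 and 58.2% above 1 over all tested probe sets. These spreads were singled out after their values were seen, and the difference in spread was not tested.

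Irf3, which is phosphorylated after nucleic acid sensing and switches on interferon beta, measured 89.5 to 207.3 at 15 months (median 132.4) and 118.0 to 242.3 at 2 months (median 169.0). Of the older mice 4 of 14 were above the 2-month mean, yet the ranges overlapped. Its change was -0.26 ± 0.13, with an unadjusted p of 0.0576 and an adjusted p of 0.419 by limma. Irf7, the factor that amplifies interferon alpha production, measured 128 ± 31.7 and 135 ± 21.2, a change of -0.09 ± 0.12. Both genes have a dimmer probe set under the filter. By limma without the filter it gave -0.31 ± 0.17 for Irf3 and 0.13 ± 0.24 for Irf7, so those of Irf7 differed in sign.

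Irf1, itself induced by interferon gamma and an activator of MHC class I genes, measured 82.0 to 265.5 at 15 months (median 176.0) and 108.6 to 193.5 at 2 months (median 169.5). Its change was 0.12 ± 0.14, and the older range enclosed the younger one. Without 15-month replicate 13 the change was 0.20, without 15-month replicate 5 it was 0.08 and without 2-month replicate 6 it was 0.06. Irf8, a factor that microglia and other myeloid cells need, measured 137 ± 31.1 and 132 ± 36.1, a change of 0.06 ± 0.13. Irf5, which acts downstream of Toll-like receptors, measured 184 ± 24.2 and 183 ± 24.2, a change of 0.01 ± 0.09 with a 95% interval of -0.17 to 0.19. Over the 6 tested IRFs 3 were above 0 and 3 below, with a median of -0.04. Irf4, a lymphocyte factor, was under the filter.

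The 2 tested STATs showed small changes. Stat3, which transmits interleukin-6 family signals, measured 950 ± 120 at 15 months and 917 ± 126 at 2 months, a change of 0.05 ± 0.08 (limma, adjusted p = 0.824). A second Stat3 probe set gave 0.14 ± 0.07, with an unadjusted p of 0.0514 and an adjusted p of 0.407, and 12 of 14 older mice above the 2-month mean. Stat5a, which transmits growth hormone and prolactin signals, measured 397 ± 91.3 and 406 ± 104, a change of -0.02 ± 0.14, and its second probe set gave 0.09 ± 0.10. Irf2bp1, a corepressor, measured 1060 ± 45.5 and 1126 ± 141, a change of -0.08 ± 0.06 with 1 of 14 older mice above the 2-month mean. None of these passed the test.

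The remaining 28 members were under the filter, with mean signals of 4.13 to 90.2. They were Eif2ak2, Gbp2, Gbp2b, Ifi202b, Ifi204, Ifi207, Ifi209, Ifi27l2a, Ifi30, Ifi35, Ifi47, Ifit1, Ifit2, Ifitm1, Ifitm2, Ifitm6, Igtp, Iigp1, Irgm1, Mx1, Mx2, Oas1g, Psmb9, Usp18, Stat4, Stat5b, Stat6 and Irf4. Many of the genes most used as interferon markers, such as Mx1, Oas1g and Usp18, were thus too dim at both ages to be tested with the others. A fit without the filter, over 12422 probe sets, called 0 of the 28 and 27 of all probe sets, or 0.217%. At an unadjusted p under 0.05 there were 2 of the 28, against 9.59% of all probe sets. Of the 28, 14 were above 0 and 14 below, with a median of 0.01. Another 4 probe sets carried several symbols of these families and were left out. 1 of them, with 3 symbols and a mean of 35.7 ± 19.1 at 15 months and 20.1 ± 11.8 at 2 months, had an unadjusted p of 0.0313 and an adjusted p of 0.471 by limma without the filter.

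The 2 dim members were Ifi30 and Ifit1, and they were singled out after their values were seen. Ifi30, a lysosomal thiol reductase that opens disulfide bonds of antigens for MHC class II, ranged from 18.6 to 69.8 at 15 months (median 52.4) and from 14.3 to 45.1 at 2 months (median 17.1). Of the older mice 10 of 14 were above the highest 2-month mouse, while replicates 3, 7, 10 and 12 lay among the younger ones at 18.6, 38.6, 19.5 and 25.2. The change was 0.67 ± 0.19 by limma without the filter, with an unadjusted p of 0.0012 and an adjusted p of 0.175 that misses the threshold. Without 4 arrays whose 99th percentile of signal was lowest (15-month replicates 3 and 12, 2-month replicates 7 and 8), it was 0.83 with an adjusted p of 0.0694, the lowest of 29 alternatives. Over these the change ran from 0.34 to 0.99 and the adjusted p up to 0.304. Leaving out those 4 arrays removed 15-month replicates 3 and 12, which lay among the younger mice for Ifi30. It also removed 2-month replicate 7, at 44.2 close to the highest younger mouse. Ifit1, which binds the ends of viral RNA, was 6.0 to 68.5 (median 28.0) and 2.8 to 39.6 (median 10.7), a change of 0.51 ± 0.23 (adjusted p = 0.479 by limma), with 0.23 to 0.94 over the alternatives and an adjusted p of 0.361 to 0.658. Its 2 highest signals, 68.5 and 67.9, were those of 15-month replicates 7 and 5.

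Some markers of cell types rose with age, while no tested member was called. Of 20 measured microglia markers 15 were tested and 5 rose by limma (Ctss, Ly86, Mpeg1, C1qb and C1qc), where 0.335% of all tested probe sets did. The other 10 did not pass. The marker lists were chosen with earlier results of these data known, so their counts are a description and not a test. The median change of the 15 was 0.25, and the summed signal of the list was 12180 to 14600 at 15 months and 9963 to 12120 at 2 months. Of the 15, 14 were above 0 and 10 had an unadjusted limma p under 0.05, against 45.0% and 12.4% of all tested probe sets. Of those that did not pass, Tyrobp was at 0.26 ± 0.08, C1qa at 0.21 ± 0.07 and Aif1 at 0.48 ± 0.18. Laptm5 was at 0.16 ± 0.07 and Cd53 at 0.25 ± 0.14. Csf1r and Cx3cr1, also on the list, were at 0.01 ± 0.08 and 0.01 ± 0.11, Cd68 at 0.02 ± 0.08 and Cyba at 0.08 ± 0.07. Coro1a was below 0, at -0.20 ± 0.08 (limma, adjusted p = 0.282), with 1 of 14 older mice above the 2-month mean. None of the measured markers was listed at 0. Of 11 endothelial markers tested 1 rose, Slc2a1 at 0.55 ± 0.12 (limma, adjusted p = 0.022), with 8 above 0 and 3 below. Those below were Tie1 at -0.30 ± 0.15, Kdr at -0.27 ± 0.19 and Tek at -0.14 ± 0.15, while Cldn5 was at 0.02 ± 0.11. Of 7 astrocyte markers 1 rose, S100b at 0.43 ± 0.09 (adjusted p = 0.0128 by limma), with 6 above 0. Gfap was at 0.45 ± 0.11 (limma, adjusted p = 0.0851), Slc1a2 at 0.03 ± 0.11 and Aldoc at 0.02 ± 0.12. The 1 below 0 was Aqp4, at -0.15 ± 0.10. Over all tested probe sets 45.0% were above 0. Markers of T, B and NK cells were called 0 times of 3 tested, with sums of 337 to 1328 and 492.8 to 756.2. The part of microglia, endothelium or astrocytes in the values of Ifi30, Irf8 or the other members was not tested. Sums for choroid plexus ran from 563 to 11982 at 15 months and from 545 to 10992 at 2 months. Ttr alone ran from 149.9 to 9922 and from 68.9 to 9134. Those for meninges ran from 7213 to 26398 and from 9596 to 20394. Both sums thus varied widely within both ages, and whether the pieces differed in these neighbouring tissues was not tested. Neuronal markers of the hippocampus were present, with 8 of 9 measured ones bright enough and 0 called. Of these 8, 2 were above 0 and 6 below, with a median of -0.12. At an unadjusted limma p under 0.05 there were 2, against 12.4% of all tested probe sets. They were Nrgn at 0.38 ± 0.12 (limma, adjusted p = 0.196) and Rgs14 at -0.17 ± 0.06 (adjusted p = 0.258). Neurod2 measured 1759 at 15 months and 1761 at 2 months.

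The highest mouse was not the same for every gene, though 15-month replicates 5 and 7 were each the highest for several. The mice named here were picked after their ranks were seen, and these counts were not tested. 15-month replicate 5 was the highest of all 23 mice for Ifitm3, Irf1, Irf5 and Isg15, 4 of the 18 members, while it was the highest for 2.36% of all tested probe sets. 15-month replicate 7 was the highest for Ifi27, Ifit3, Irf8 and Irf9, against 4.78% of all probe sets. 15-month replicate 11 was the lowest for Irf5, Irf7 and Isg15, against 4.59%. Replicate 13 was the lowest for Ifit3 at 17.3, Irf1 at 82.0 and Irf9 at 82.9 and the highest for Gbp7 at 237.2. That array was the lowest for 10.3% and the highest for 11.6% of all tested probe sets, had a lower quartile signal of 53.4 where the other arrays had 30.2 to 41.8, and correlated with the other arrays at a median of 0.947 against 0.967 to 0.977.

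**Figure D4:**
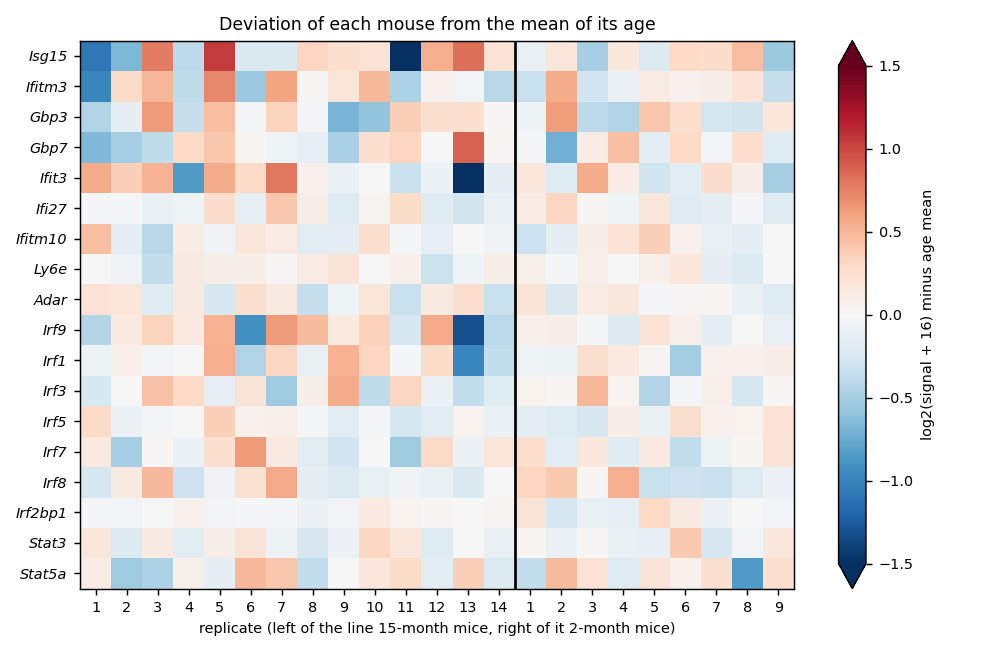
Deviation of log2(signal + 16) of each mouse from the mean of its age (colour scale in log2 units, red higher, blue lower) for the 18 tested members, 15-month mice left of the line and 2-month mice right of it. Replicate 5 of the 15-month mice is red for Isg15, Ifitm3, Irf1 and Irf9, and replicate 13 is blue for Ifit3, Irf9 and Irf1.

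Whether induced members rose and fell together between mice of 1 age was asked with the 36 pairs of the 9 tested effectors, after subtraction of the age mean (n = 23). The permutations shuffled mice over both ages and not within age. Spreads differed between the ages for several members, as given above, so the permutation p-values are approximate and may be too small. The median Pearson r was -0.03, the range was -0.45 to 0.61, and 4 pairs had an unadjusted permutation p under 0.05. After Benjamini-Hochberg adjustment over the 36 pairs 0 passed. Ifitm3 and Isg15 came closest, with r = 0.61 (permutation p = 0.00174, adjusted 0.0626) and Spearman's rho = 0.49 (permutation p = 0.018, adjusted 0.429). Within the ages r was 0.60 at 15 months and 0.66 at 2 months, and without the 2 mice farthest from the median it was 0.44. Without 15-month replicate 13 this 1 pair passed, at r = 0.65 and an adjusted permutation p of 0.0392. Ifit3 and Isg15, which both have several response element matches in their promoters, had r = -0.08, and Gbp7 and Isg15 had r = 0.27. Whether promoter matches go with correlation between mice was not tested.

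Over all 1035 pairs of the 46 members, dim ones included, 6 passed after adjustment over these pairs, 4 of them above 0, and 0 passed without 15-month replicate 13 (smallest adjusted permutation p 0.0621). This wider search was added after the first pairs were seen, and its permutations have the same limit. Gbp2, a guanylate-binding protein, and Ifitm3 had r = 0.72 (adjusted permutation p = 0.0414), with 0.85 at 15 months, 0.49 at 2 months, 0.63 without the 2 farthest mice and rho = 0.66 (adjusted 0.435). Without replicate 13 it kept r = 0.72, at an adjusted permutation p of 0.0725. Gbp2 and Isg15 had r = 0.63 (adjusted permutation p = 0.111). Ifi35 and Isg15 ran against each other, with r = -0.71 (adjusted permutation p = 0.0414). Irf1 and Irf9 had r = 0.75 (adjusted permutation p = 0.0414), with 0.85 at 15 months but -0.44 at 2 months, and 0.57 without replicate 13 (adjusted 0.386). The other passing pairs were Ifitm6 and Oas1g at r = 0.76, Irf1 and Oas1g at -0.75 and Ifitm6 and Mx1 at 0.66. Their adjusted permutation p was 0.0414, 0.0414 and 0.0431. Without replicate 13 their r was 0.48, -0.54 and 0.59. That array held the highest Oas1g signal, 45.2, against a 15-month median of 7.3. Oas1g, Ifitm6 and Mx1 were all under the filter.

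**Figure D5:**
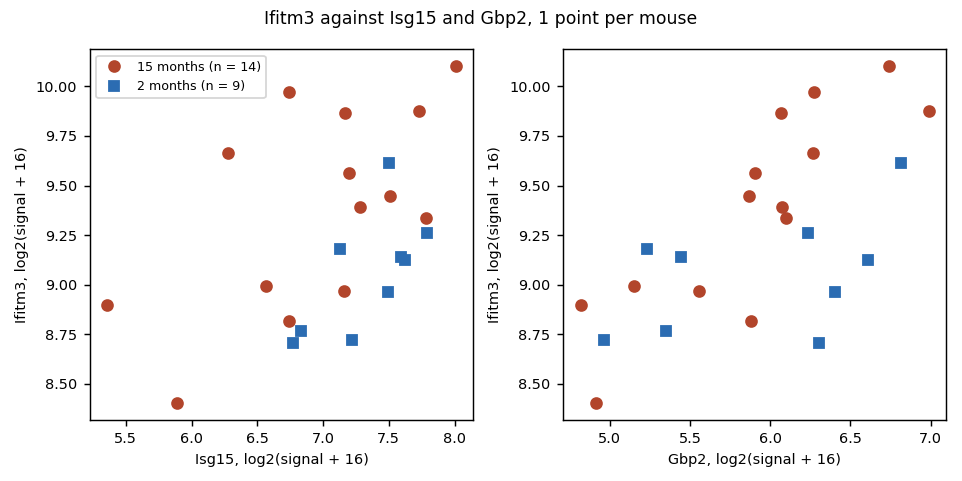
Log2(signal + 16) of Ifitm3 against Isg15 (left) and against Gbp2 (right), 1 point per mouse, red circles for 15 months (n = 14) and blue squares for 2 months (n = 9). Both panels run upward within each age, with r after subtraction of the age means of 0.61 on the left and 0.72 on the right.

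The genes on both sides of the members in the pathway were taken from lists by role, chosen with earlier results of these data known. All 9 interferon receptor and Janus kinase genes were tested and 0 were called, with 3 at an unadjusted p under 0.05, 5 above 0 and 4 below, and a median of 0.03. Of all tested probe sets 0.376% were called, 12.4% had an unadjusted p under 0.05, 45.0% were above 0 and the median was -0.02. Jak3, the kinase of interleukin receptors with the common gamma chain, had the lowest p: its signal was 299 ± 53.4 at 15 months and 372 ± 52.7 at 2 months, with 1 of 14 older mice above the 2-month mean. Its change was -0.31 ± 0.10 (limma, adjusted p = 0.196). The others at that level, named after their values were seen, were Ifnar2, a chain of the interferon alpha and beta receptor, at -0.35 ± 0.12 (adjusted p = 0.242 by limma), and Ifngr1, the binding chain of the interferon gamma receptor, at 0.52 ± 0.23 (adjusted p = 0.361). The kinases named above for the alpha and beta receptor, Jak1 and Tyk2, changed by 0.04 ± 0.06 and 0.09 ± 0.27.

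Among the interferon genes themselves 2 of 9 measured were bright enough. Ifnab, of the interferon alpha family, had the lower p, with signals of 187 ± 57.6 and 218 ± 52.9 and a change of -0.22 ± 0.15 (limma, adjusted p = 0.551). Since the interferon alpha genes among them are near-identical copies, the probe sets of that family can share transcripts. Of the sensors and adaptors of interferon induction 4 of 8 measured were tested and 0 called. Tbk1, the kinase that phosphorylates IRF3, changed by 0.13 ± 0.06 (limma, adjusted p = 0.385). Of the inhibitors of JAK-STAT signalling 9 of 12 were tested and 0 called, with a median of 0.02. Socs5, of the suppressors of cytokine signalling, measured 695 ± 91.4 at 15 months and 822 ± 108 at 2 months, a change of -0.24 ± 0.08 (limma, adjusted p = 0.214).

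The 1 gene called on these lists was B2m, the shared light chain of MHC class I, on the list of other genes known as interferon-induced. It was 879 to 2224 at 15 months (median 1721) and 688.5 to 1421 at 2 months (median 1095), and 13 of 14 older mice were above the 2-month mean. Its change was 0.60 ± 0.13 (limma, adjusted p = 0.0234). It no longer passed when 2-month replicate 1, 3 or 7 was left out (adjusted p of 0.0695, 0.0649 and 0.0527), without the 4 arrays of low 99th percentile (0.0665) and in the exact permutation test (0.0758). Of the 38 measured genes of that list 19 were tested, 1 rose and 0 fell, 16 were above 0 and the median was 0.12. Over all tested probe sets 0.335% rose, 0.0403% fell, 45.0% were above 0 and the median was -0.02. The list was chosen with earlier results of these data known, so these shares are a description and not a test. Class I genes had the next lowest p, with H2-D1 at 0.32 ± 0.11 and H2-K1 at 0.25 ± 0.09 (limma, adjusted p of 0.234 and 0.258), named after their values were seen, while Tap1, the peptide transporter, was at 0.12 ± 0.11 and Psmb10, an immunoproteasome subunit, at 0.00 ± 0.06. Summed microglia markers were higher at 15 months, as given above, and their part in the B2m value was not tested.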

How the data were processed

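The members and all gene lists were chosen with earlier results of these data known. The authors deposited linear intensities. The submitters' processing notes name MAS5, which gives each probe set 1 signal on an array. Its version is not given in these sources. The arrays had been scaled to about the same trimmed mean before deposit, so no further normalisation was applied. Of 12488 probe sets the 66 controls were left out. Names came from the platform annotation, and all 46 member symbols matched the RefSeq table of GRCm38.p6.

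Signals were analysed as log2(signal + 16), which understates the change of dim genes, and the ages were compared by limma's lmFit and eBayes, with its trend and robust options (limma 3.58.1, R 4.3.3), two-sided, and p-values were adjusted by Benjamini-Hochberg over 7453 probe sets at a threshold of 0.05. Errors are the SD over mice for signals and the SE of limma for changes, intervals are at 95%, and the number of arrays limits the precision. The fit was tested on simulated data.

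Named members were the 5 of lowest p in each direction, the 3 of highest mean signal, every tested IRF and STAT and the second probe sets of these, beside each pathway list's called gene and gene of lowest p. Gbp3, Gbp7 and Ifit3 complete the 18 tested members. Correlations used 100000 permutations, two-sided, in Python 3.11.15 with scipy 1.17.1, pandas 2.3.3 and numpy 2.4.6. Figures were drawn with matplotlib 3.10.9. Alternatives were the pseudocount, the filter, quantile normalisation, the variance model, an exact permutation test, an array covariate, other probe sets and leaving out arrays.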

Additional observations from a re-analysis of the deposited data

Results flagged for a closer look

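In the 2-month group, where all 9 mice could be examined for a single value far from the rest, 2 of the 27 genes examined (the tested members, Ifi30, Ifit1 and 7 pathway genes) held one. Irf1 in 2-month replicate 6 was 108.6, with the nearest mouse at 153.0, a gap of 0.523 of the group's range against a critical value of 0.493. Irf3 in 2-month replicate 3 was 242.3, with the nearest mouse at 175.9, a gap of 0.534 of the range. Chance gives such a value in about 1 in 20 groups. Without 2-month replicate 6 the age difference of Irf1 went from 0.12 to 0.06 on the log2 scale (limma, adjusted p = 0.898). Without 2-month replicate 3 that of Irf3 went from -0.26 to -0.19 (adjusted p = 0.605 by limma).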

How the results depend on the processing

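Over 565 alternatives for the 18 tested members, 537 kept the direction and the side of the threshold, and the lowest adjusted p was 0.263. The count of members called was 0 in every setting run. The count over all probe sets was 28, 20 to 39 when 1 mouse was left out, and 56 with the 25th percentile of each array as a covariate; the cause was not tested. Reversals of direction concerned 5 members, all with adjusted p above 0.05. Second probe sets under the filter, such as those of Irf7 and Ly6e given above, were not among the alternatives. Adar turned to 0.11 with its second probe set. Without the 4 arrays of lowest 99th percentile Irf8 turned to -0.043 and Gbp3 to -0.13. Stat5a turned to 0.0024 under quantile normalisation, 0.026 with the array covariate and 0.09 with its second probe set. With 1 mouse left out, Irf5 ran from -0.022 to 0.039, Stat5a from -0.13 to 0.040 and Gbp3 from -0.036 to 0.10. Of the pairs of induced members 0 passed, 1 without 15-month replicate 13 and 6 over all members. The 28 dim members are limited by signal over background. No paired analysis was possible because no label links a 15-month mouse to a 2-month mouse.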
